A study of Mus musculus with 8 samples.

Results

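The data compare Rem2 KO cortical neurons with Control cortical neurons after depolarisation, in 4 of the 8 RNA-seq libraries of the study. The members were chosen by label alone: the 2 libraries titled Rem2 KO with KCl and the 2 titled Control with KCl. Mouse cortical neurons of embryonic day 16.5 were cultured for 6 days in both groups. They received 1 µM tetrodotoxin, which blocks sodium channels and so silences the cultures, overnight from day 5, and 55 mM KCl for 4 h on day 6. The other 4 libraries, Rem2 KO and Control, had tetrodotoxin without KCl and serve here as the silenced background. The genotype label of all 8 libraries is Rem2 flx/flx, so the Control neurons carry the floxed alleles too. The labels state neither how Cre was delivered nor which exons it removes. Each group holds 2 biological replicates, numbered 1 and 2, and no label says that a number marks a shared culture. Values are FPKM (fragments per kilobase of transcript, scaled to library size) computed by the authors and summed per gene. Of 23830 genes, the 12287 above 0 in all 4 depolarised libraries and at 1 FPKM or more in at least 2 of them were tested.

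Rem2 is a small GTPase of the RGK family (Rem1, Rem2, Rrad and Gem), whose members are known as inhibitors of high-voltage-activated calcium channels. Depolarisation with KCl opens these channels, and the calcium that enters drives a first wave of transcription factor genes and a later wave of effector genes. Rem2 is itself a gene of that response in neurons, and in rodent neurons it is known for roles in synapse formation and in limiting dendrite branching.

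Read counts were not used here, and steps between the lowest FPKM values place the depth roughly at 19.4 and 36.3 M fragments in Rem2 KO with KCl, and at 20.4 and 42.9 M in Control with KCl. Libraries of equal number were alike: across genes the log2 values of the same-numbered libraries of both genotypes correlated at 0.994, against 0.958 and 0.96 between replicates of a group. The comparison was made within the replicate numbers of the titles, as 2 pairs of Rem2 KO and Control libraries, a choice that did not rest on these correlations. FPKM sums lay between 455073 and 474624 in the 4 libraries. The excitatory neuron markers, 15 of 15 in the table and none at 0 throughout, summed to 867 and 727 FPKM in Rem2 KO with KCl and to 898 and 924 FPKM in Control with KCl. Astrocyte and radial glia markers summed to 2250 and 3050 FPKM in Rem2 KO with KCl, against 1860 and 2760 FPKM in Control with KCl. RNA of glia and progenitors was thus present beside that of neurons.

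Rem2 RNA was present at 11.7 and 12.4 FPKM in Rem2 KO with KCl, against 22.5 and 21.4 FPKM in Control with KCl (chr14:54476100-54480434, GRCm38.p6). Both Rem2 KO libraries lay below both Control libraries, as in 8.26% of all genes tested. The log2 difference of FPKM + 1 was -0.82 (SE 0.23) and missed the threshold (limma with the replicate number as a block, Benjamini-Hochberg adjusted p = 0.296). Of 21 alternative fits (other settings, or 1 library left out), 20 also missed it. The exception was a fit of only the 4 depolarised libraries, with an adjusted p of 5.69e-05. That fit has 1 residual degree of freedom, and 354 genes passed in it. Whether the transcripts left in Rem2 KO lack the floxed exons was not tested, because the values are totals over whole transcripts. In the silenced cultures Rem2 stood at 2.13 and 1.70 FPKM in Rem2 KO and at 6.29 and 2.54 FPKM in Control. Gem had 5.60 and 4.98 FPKM in Rem2 KO with KCl, against 4.78 and 4.71 FPKM in Control with KCl. Rrad had 1.52 and 1.37 FPKM in Rem2 KO with KCl, against 1.32 and 1.16 FPKM in Control with KCl. Neither passed (adjusted p = 0.896 for Gem and 0.89 for Rrad), and the sign for Gem turned to -0.04 without replicate 1 of Rem2 KO with KCl. Rem1 stayed below the filter, at no more than 0.0308 FPKM in the 4 depolarised libraries.

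In depolarised neurons 18 of the 12287 genes, or 0.146%, differed between Rem2 KO and Control at an adjusted p under 0.05 (limma on log2(FPKM + 1), all 8 libraries, the replicate number as a block). Of these, 16 (0.13%) were lower in Rem2 KO and 2 (0.0163%) were higher. The genes that fell include 4 regulators of transcription (Zbtb18, Bhlhe22, Satb1, Lmo1), 3 receptors (Grm2, Mc4r, Gpr85), 3 cell-surface or secreted proteins (Gpc5, Pcdh17, Prss12) and Gucy1b1, a subunit of the nitric oxide receptor. The higher genes were C2cd4b and Mir670. At an unadjusted p under 0.05 there were 1040 genes (8.46%), of them 543 higher (4.42%) and 497 lower genes (4.04%). The call count rests on the model: 0 genes passed without the replicate block (174 at an unadjusted p under 0.05, 1.42%), 0 after quantile normalization, and 354 (158 higher, 196 lower) in a fit of only the 4 depolarised libraries. Leaving out any 1 of those 4 libraries left 0 or 1, and leaving out either silenced Control library left 6. In each of these fits all 18 genes kept their direction. The 18 were picked from these same libraries with equal sign in both pairs, so a kept direction is no independent support. With 2 replicates a group, the p-values rest on the spread left after the replicate block, over all 8 libraries. That spread has 3 residual degrees of freedom, and limma draws it towards a trend over genes.

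**Figure D1:**
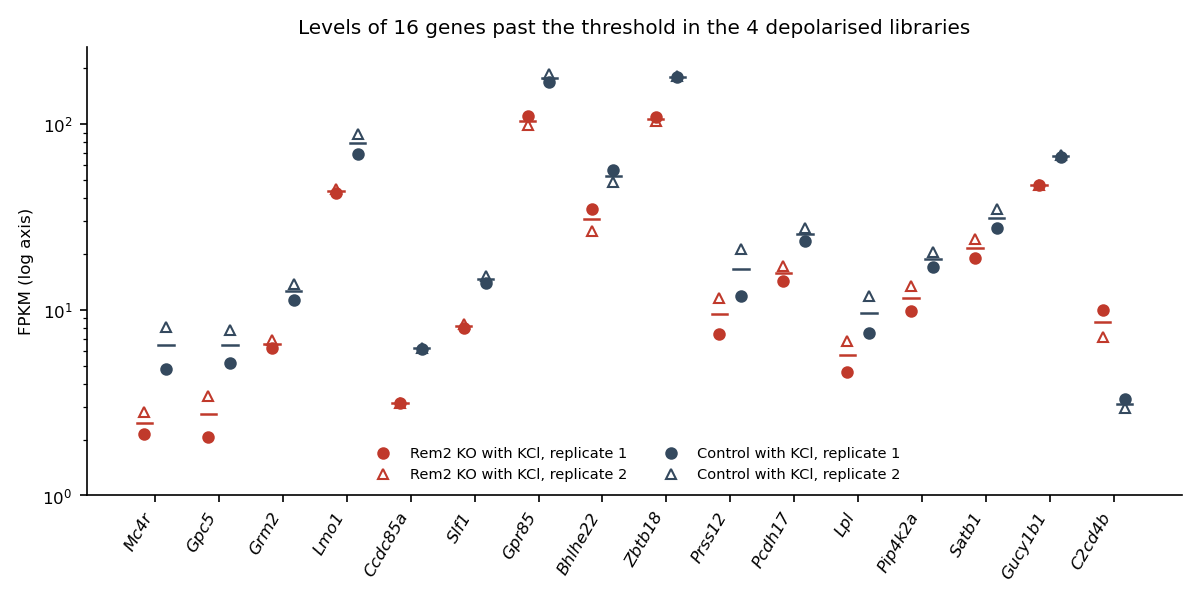
FPKM (log axis) of 16 of the 18 genes that passed, in Rem2 KO with KCl (red) and Control with KCl (dark blue); circles are replicate 1, triangles replicate 2 and bars the group means (n = 2). For 15 genes both Rem2 KO libraries lie below both Control libraries (8.26% of all genes tested do), and for C2cd4b both lie above (10.4% do). Mir670 and B230209E15Rik are given in the text.

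Zbtb18 (chr1:177442351-177450764), a zinc-finger repressor needed for cortical neuron differentiation in mice, had 109 and 104 FPKM in Rem2 KO with KCl, against 179 and 181 FPKM in Control with KCl. The groups were far apart relative to their spread, with a log2 difference of -0.76 (SE 0.095, adjusted p = 0.0332). Bhlhe22 (chr3:18054325-18057514), a basic helix-loop-helix factor of cortical projection neurons, had 34.9 and 26.4 FPKM in Rem2 KO with KCl, against 56.3 and 48.5 FPKM in Control with KCl (log2 difference -0.76, SE 0.077, adjusted p = 0.0319). Replicate 2 was the lower library in both genotypes. The groups did not overlap, and 8.26% of all genes tested were lower without overlap. Lmo1 (chr7:109138565-109175207), a LIM-only cofactor that bridges transcription factors, had 42.4 and 44.5 FPKM in Rem2 KO with KCl and 69.4 and 88.2 FPKM in Control with KCl (log2 difference -0.83, SE 0.11, adjusted p = 0.0332). Satb1 (chr17:51736187-51833290), a chromatin organiser known for its role in maturing interneurons, had 18.9 and 23.9 FPKM in Rem2 KO with KCl, against 27.6 and 35.0 FPKM in Control with KCl (log2 difference -0.53, SE 0.074, adjusted p = 0.0476). Of the 4, Satb1 had the smallest difference and Lmo1 the largest.

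Promoter windows are shown for Zbtb18, Gucy1b1 and C2cd4b, picked because they alone of the 14 genes that passed and have a window hold CATCTG. A window runs from 250 bases before to 50 bases after a RefSeq transcription start (GRCm38.p6), and is read 5′ to 3′ along the gene. Capitals mark matches on either strand to CATCTG, the core of the element bound by Zbtb18 protein, or to TGACG, the half-site of CREB.
Zbtb18, chr1:177442101-177442400, plus strand: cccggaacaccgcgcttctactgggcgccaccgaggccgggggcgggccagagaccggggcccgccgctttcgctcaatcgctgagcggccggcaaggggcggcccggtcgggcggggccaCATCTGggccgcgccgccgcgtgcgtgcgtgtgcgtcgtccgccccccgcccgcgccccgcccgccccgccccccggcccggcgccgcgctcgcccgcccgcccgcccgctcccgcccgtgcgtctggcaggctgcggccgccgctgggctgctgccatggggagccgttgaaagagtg
Gucy1b1, chr3:82074662-82074961, minus strand: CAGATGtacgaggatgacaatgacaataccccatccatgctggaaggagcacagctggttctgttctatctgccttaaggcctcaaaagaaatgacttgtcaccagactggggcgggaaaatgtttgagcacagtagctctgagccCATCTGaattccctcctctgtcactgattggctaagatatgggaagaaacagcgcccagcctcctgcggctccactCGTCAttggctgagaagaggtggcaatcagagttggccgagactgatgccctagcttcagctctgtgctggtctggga
C2cd4b, chr9:67759187-67759486, plus strand: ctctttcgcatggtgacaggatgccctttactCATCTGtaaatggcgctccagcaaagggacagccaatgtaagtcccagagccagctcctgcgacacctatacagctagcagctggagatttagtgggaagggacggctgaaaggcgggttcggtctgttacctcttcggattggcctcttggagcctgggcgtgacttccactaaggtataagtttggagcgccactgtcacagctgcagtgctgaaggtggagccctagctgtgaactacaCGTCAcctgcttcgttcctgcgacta
The 3 motifs searched were TGACGTCA, the full CREB site, which contains TGACG, then TGACG itself and CATCTG. RefSeq gave 22 windows for 13 of the 16 genes that fell. Of these windows 0 held TGACGTCA, 3 (13.6%) held TGACG and 6 (27.3%) held CATCTG. Among the 12586 windows of all genes tested the shares were 3.15%, 31.2% and 11.2%. All 5 windows of Zbtb18, which are alternative starts of 1 gene, held CATCTG, and the sixth is that of Gucy1b1. A match is a run of letters in this window and says nothing of binding.

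Among receptors, Mc4r on chromosome 18, the melanocortin receptor for alpha-MSH, had 2.13 and 2.82 FPKM in Rem2 KO with KCl, against 4.81 and 8.09 FPKM in Control with KCl (log2 difference -1.07, SE 0.13, adjusted p = 0.0332). It was the largest fall among the genes that passed. Grm2 (chr9:106644534-106656109), the presynaptic metabotropic glutamate receptor 2, which lowers transmitter release, had 6.24 and 6.91 FPKM in Rem2 KO with KCl, against 11.3 and 13.8 FPKM in Control with KCl (log2 difference -0.84, SE 0.11, adjusted p = 0.0342). Gpr85 (chr6:13834406-13839942), an orphan receptor of brain, had 111 and 98.3 FPKM in Rem2 KO with KCl and 169 and 186 FPKM in Control with KCl (log2 difference -0.76, SE 0.09, adjusted p = 0.0332). All 3 receptors were lower in both pairs without overlap, as were 8.26% of all genes tested.

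At the cell surface, Gpc5 (chr14:115092201-116525192), a heparan sulfate proteoglycan of the glypican family, had 2.07 and 3.43 FPKM in Rem2 KO with KCl, against 5.16 and 7.81 FPKM in Control with KCl (log2 difference -1.0, SE 0.094, adjusted p = 0.0319). Its pair differences of -1.01 and -0.99 were close to each other although the levels of both genotypes were higher in replicate 2. Pcdh17 (chr14:84443563-84537565), a protocadherin of axons and synapses, had 14.2 and 17.2 FPKM in Rem2 KO with KCl, against 23.5 and 27.6 FPKM in Control with KCl (log2 difference -0.67, SE 0.081, adjusted p = 0.0332). Prss12 (chr3:123446913-123506602), the secreted protease neurotrypsin, which cuts agrin, had 7.36 and 11.6 FPKM in Rem2 KO with KCl, against 11.9 and 21.3 FPKM in Control with KCl (log2 difference -0.72, SE 0.095, adjusted p = 0.0342). For Prss12 the higher Rem2 KO library nearly reached the lower Control library, and without the block its unadjusted p was 0.154.

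The remaining falls were in enzymes and in genes of other or unclear roles. Gucy1b1 (chr3:82032004-82074711), the beta-1 subunit of soluble guanylate cyclase, had 46.9 and 46.8 FPKM in Rem2 KO with KCl, against 66.3 and 68.3 FPKM in Control with KCl (log2 difference -0.51, SE 0.068, adjusted p = 0.0348). Its partner subunit Gucy1a1 had 36.1 and 38.9 FPKM in Rem2 KO with KCl, against 45.9 and 52.3 FPKM in Control with KCl, and did not pass (adjusted p = 0.133, named after its values were seen). Lpl, lipoprotein lipase (chr8:68880555-68906932), had 4.60 and 6.83 FPKM in Rem2 KO with KCl, against 7.53 and 11.8 FPKM in Control with KCl (log2 difference -0.66, adjusted p = 0.0348). In both subunits and in Lpl the 2 Rem2 KO libraries lay below the 2 Control libraries, as in 8.26% of all genes tested. Pip4k2a (chr2:18842255-18998291), a phosphoinositide kinase, had 9.85 and 13.4 FPKM in Rem2 KO with KCl, against 17 and 20.5 FPKM in Control with KCl (log2 difference -0.65, adjusted p = 0.0332). Slf1 (chr13:77043088-77135513), a protein of the DNA damage response, had 7.93 and 8.33 FPKM in Rem2 KO with KCl, against 14 and 15.2 FPKM in Control with KCl (log2 difference -0.77, adjusted p = 0.0329). Ccdc85a (chr11:28385684-28587234) had 3.14 and 3.16 FPKM in Rem2 KO with KCl, against 6.15 and 6.26 FPKM in Control with KCl (log2 difference -0.80, adjusted p = 0.0332). The replicates of Slf1 and Ccdc85a were close in both genotypes. The last, B230209E15Rik, a gene without a name, had 13.9 and 13.6 FPKM in Rem2 KO with KCl, against 23.8 and 21.1 FPKM in Control with KCl (log2 difference -0.67, adjusted p = 0.0332).

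C2cd4b (chr9:67716224-67760933), which encodes a C2-domain protein, rose to 10.0 and 7.11 FPKM in Rem2 KO with KCl, against 3.29 and 2.96 FPKM in Control with KCl. Its log2 difference was 1.2 (SE 0.15, adjusted p = 0.0332), and both Rem2 KO libraries lay far above both Control libraries. Without KCl it had 1.75 and 1.08 FPKM in Rem2 KO and 0.732 and 0.897 FPKM in Control. The other gene, Mir670 (chr2:94261300-94261399), is a microRNA hairpin of 100 bases and is named after its values were seen, since the naming rule skips microRNAs. It had 125 and 95.7 FPKM in Rem2 KO with KCl, against 50.2 and 26.6 FPKM in Control with KCl (log2 difference 1.55, SE 0.20, adjusted p = 0.0332). Mir670 is listed at 0 in all 4 silenced libraries, and a listed 0 can be a failed estimate. Those libraries entered the fit behind the call. The values are for the hairpin entry, and the mature microRNAs were not measured. Both C2cd4b and Mir670 lost their call with a pseudocount of 0.1, where 14 genes passed, all lower. The mature sequences cut from this hairpin are shown with their seeds (bases 2 to 8) in capitals, from RefSeq, and the arms have different seeds.
mmu-miR-670-5p: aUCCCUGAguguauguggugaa
mmu-miR-670-3p: uUUCCUCAuauccauucaggagugu

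The other rises with the smallest p-values did not pass. Mfap2, a microfibril protein of the extracellular matrix, had 43.3 and 37.6 FPKM in Rem2 KO with KCl, against 30.2 and 26.8 FPKM in Control with KCl (log2 difference 0.49, adjusted p = 0.0534). Lst1, a transcript known from leukocytes, had 2.93 and 3.58 FPKM in Rem2 KO with KCl, against 1.39 and 1.51 FPKM in Control with KCl (log2 difference 0.79, adjusted p = 0.0554). Rcor2, a corepressor of REST, had 13.9 and 14.3 FPKM in Rem2 KO with KCl, against 9.44 and 10.0 FPKM in Control with KCl (adjusted p = 0.0761). These 3 did not overlap between genotypes, as 10.4% of all genes tested in that direction did not. Ift46, an intraflagellar transport protein, Rgs16, an inhibitor of G protein signalling, Gpr153 and Gtf2ird1 had log2 differences of 0.51, 0.52, 0.67 and 0.63, with adjusted p-values between 0.0554 and 0.0664. Acta2, smooth muscle actin, had 5.64 and 66.0 FPKM in Rem2 KO with KCl, against 3.67 and 49.8 FPKM in Control with KCl (adjusted p = 0.0785), so its level followed the replicate number far more than the genotype.

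The size of the differences was also described without a test. In both pairs 258 genes (2.1%) had a log2 difference of FPKM + 1 of at least 0.32 in size and of the same sign, 101 higher (0.822%) and 157 lower (1.28%), and 22 genes (0.179%) differed as much in opposite directions. At least 0.58 in size, a fold of 1.5, in both pairs left 12 higher and 28 lower genes. Smaller differences went the other way: 4377 genes (35.6%) were higher in both pairs and 2913 (23.7%) lower in both, and the median log2 difference was -0.0048 in pair 1 and 0.045 in pair 2. After quantile normalization those counts were 3856 and 3675, so the surplus of small rises depends on the scaling, while the split of the genes past 0.32 became 77 higher and 178 lower. Across genes the differences of the 2 pairs correlated at 0.354, a description over genes that share these 4 libraries.

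**Figure D2:**
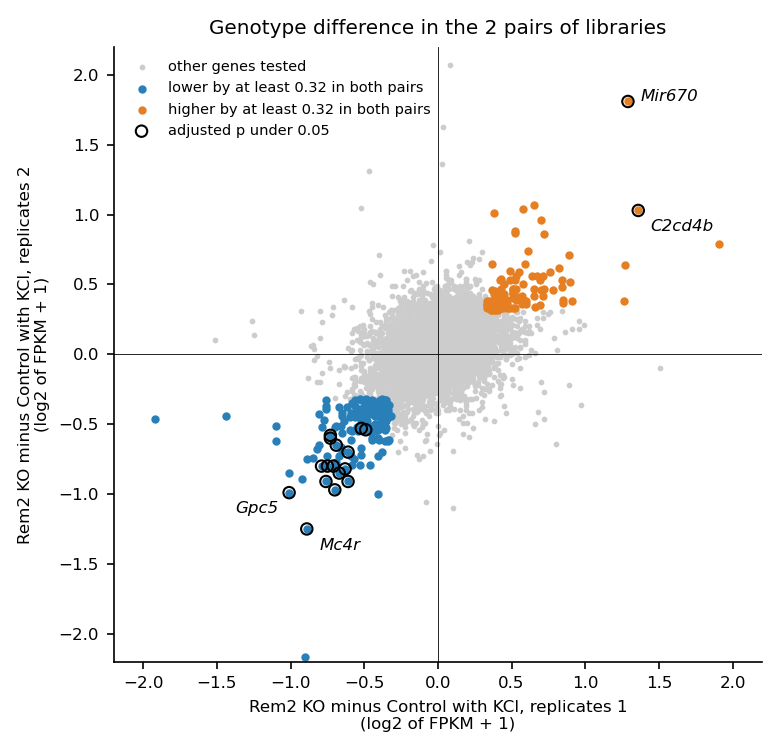
Rem2 KO minus Control with KCl (log2 of FPKM + 1) in the libraries numbered 1 (x axis) and 2 (y axis), 1 point per gene, with the 157 genes lower by at least 0.32 in both pairs in blue, the 101 higher by as much in orange and the 18 that passed circled. Of the circled genes 16 lie at the lower left and 2 at the upper right; 3 genes lie outside the axes.

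Genes of the synapse were more often lower than higher in both pairs, although few passed, and only 0.146% of all genes tested did. Of 79 tested synaptogenic adhesion and secreted molecules, 43 were lower in both pairs and 19 higher, the median log2 difference was -0.075 against 0.021 over all genes, and 1 passed (Pcdh17). At an unadjusted p under 0.05, 22 of the 79 were lower and 3 higher, beside 4.04% lower and 4.42% higher over all genes tested. Pcdh19, a protocadherin linked to epilepsy and named after its values were seen, had 8.06 and 6.90 FPKM in Rem2 KO with KCl, against 12.5 and 10.6 FPKM in Control with KCl (adjusted p = 0.0785). Of 30 glutamate receptor genes, 16 were lower in both pairs and 8 higher, with a median of -0.10, and Grm2 alone passed. Of 34 presynaptic release genes 15 were lower and 7 higher, and 0 passed. Syt1, the calcium sensor of fast release, had 72.1 and 82.1 FPKM in Rem2 KO with KCl, against 94.0 and 107 FPKM in Control with KCl (log2 difference -0.38, adjusted p = 0.108). Ppfia2, an active zone scaffold, had 20.4 and 21.7 FPKM in Rem2 KO with KCl, against 24.9 and 29.6 FPKM in Control with KCl (adjusted p = 0.189). Both were lower without overlap, as were 8.26% of all genes tested.

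Among the 21 genes of the GABAergic synapse 10 were lower in both pairs and 1 was higher, with a median of -0.052. Gabrb2, the beta-2 subunit of the GABA-A receptor, had 11.6 and 11.7 FPKM in Rem2 KO with KCl, against 15.8 and 18.3 FPKM in Control with KCl (log2 difference -0.50, adjusted p = 0.147). Gabrb1 had 3.60 and 7.10 FPKM in Rem2 KO with KCl, against 6.31 and 8.35 FPKM in Control with KCl (adjusted p = 0.349), which overlap. Of 28 postsynaptic density scaffolds 12 (42.9%) were lower and 9 (32.1%) higher in both pairs, against 23.7% and 35.6% over all genes tested. In that list Sipa1l1, a scaffold of spines, had 24.6 and 27.2 FPKM in Rem2 KO with KCl, against 18.1 and 20.8 FPKM in Control with KCl (log2 difference 0.40, adjusted p = 0.123), and Dlg2, PSD-93, had 43.9 and 44.8 FPKM in Rem2 KO with KCl, against 50.2 and 54.8 FPKM in Control with KCl (adjusted p = 0.404). No member of these lists passed, and only 0.146% of all genes tested did.

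Calcium entry and signalling are where RGK proteins act. Of 15 voltage-gated calcium channel subunits 7 (46.7%) were lower and 2 (13.3%) higher in both pairs, against 23.7% and 35.6% over all genes tested. Their median was -0.081, and 0 passed, beside 0.146% over all genes tested. Cacna1e, the pore of R-type channels, had 6.59 and 7.27 FPKM in Rem2 KO with KCl, against 8.91 and 9.56 FPKM in Control with KCl (log2 difference -0.37, adjusted p = 0.325). Cacna1h, a T-type pore, had 16.6 and 14.2 FPKM in Rem2 KO with KCl, against 14.1 and 10.7 FPKM in Control with KCl (log2 difference 0.30, adjusted p = 0.31). Cacna1e and Cacna1h thus had opposite signs, and neither passed. Of 33 calcium-calmodulin signalling genes 11 were lower and 7 higher, with a median of -0.016 and none past the threshold. Adcy1, a calmodulin-stimulated adenylyl cyclase, had 31.4 and 38.4 FPKM in Rem2 KO with KCl, against 42.7 and 51.4 FPKM in Control with KCl (log2 difference -0.42, adjusted p = 0.0942). Camkk1, a kinase that activates CaM kinases, had 8.47 and 7.94 FPKM in Rem2 KO with KCl, against 6.09 and 5.79 FPKM in Control with KCl (log2 difference 0.41, adjusted p = 0.147). Of 49 sodium and potassium channel genes 22 were lower and 13 higher in both pairs, with 0 past the threshold and a median of -0.059.

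Among the response genes of depolarisation no member passed, and only 0.146% of all genes tested did. Of 23 immediate-early transcription factor genes 8 were higher and 4 lower in both pairs, and the median was 0.018 against 0.021 over all genes. Summed FPKM of this list was 1100 and 962 in Rem2 KO with KCl, against 1080 and 947 in Control with KCl, which was not tested. Myc had 21.3 and 22.8 FPKM in Rem2 KO with KCl, against 17.1 and 17.5 FPKM in Control with KCl (log2 difference 0.33, adjusted p = 0.289). Crem, a cAMP-responsive regulator, had 35.6 and 41.8 FPKM in Rem2 KO with KCl, against 44.1 and 50.7 FPKM in Control with KCl (log2 difference -0.29, adjusted p = 0.583). Of 33 late effector genes 15 were higher and 8 lower, with a median of 0.078 and none past the threshold. Nptx1, a neuronal pentraxin that clusters AMPA receptors, had 8.66 and 5.80 FPKM in Rem2 KO with KCl, against 5.69 and 3.62 FPKM in Control with KCl (log2 difference 0.54, adjusted p = 0.147). Cdkn1a, an inhibitor of the cell cycle and a p53 target, had 186 and 244 FPKM in Rem2 KO with KCl, against 133 and 204 FPKM in Control with KCl (log2 difference 0.37, adjusted p = 0.31).

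Genes of axon growth and of cortical neuron identity leaned lower. Of 39 axon guidance and dendrite growth genes 23 were lower in both pairs and 6 higher, with a median of -0.085. Past the threshold were 0, beside 0.146% over all genes tested. Sema7a, a membrane-anchored semaphorin, had 17.6 and 17 FPKM in Rem2 KO with KCl, against 24.0 and 25.3 FPKM in Control with KCl (log2 difference -0.49, adjusted p = 0.0697). Unc5c, a netrin receptor, had 7.60 and 10.2 FPKM in Rem2 KO with KCl, against 11.6 and 15.1 FPKM in Control with KCl (log2 difference -0.53, adjusted p = 0.123). Of 38 transcription factors of cortical projection neurons 19 were lower and 11 higher, with a median of -0.10, and Bhlhe22 and Zbtb18 passed. Among 15 excitatory neuron markers, 9 were lower and 3 higher in both pairs. The 3 higher ones, Slc17a6, Camk2a and Tbr1, had log2 differences of 0.37, 0.18 and 0.1 (adjusted p = 0.408, 0.57 and 0.806). Nrgn, neurogranin, had 74.4 and 64.7 FPKM in Rem2 KO with KCl, against 94.9 and 90.5 FPKM in Control with KCl (adjusted p = 0.244). The groups did not overlap, and 8.26% of all genes tested were lower without overlap. In whole-culture RNA fewer cells of a type and less RNA per cell cannot be told apart.

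No marker of the other cell types passed, and only 0.146% of all genes tested did. All 17 tested proliferation and progenitor markers were higher in both pairs (median 0.17, 16 of them after quantile normalization), and the summed FPKM was 373 and 509 in Rem2 KO with KCl, against 341 and 440 in Control with KCl. Ccnb1, cyclin B1, had 15.2 and 22.9 FPKM in Rem2 KO with KCl, against 12.1 and 19.1 FPKM in Control with KCl (adjusted p = 0.441), and the groups overlap. Of 18 astrocyte and radial glia markers 10 were higher and 1 lower, with a median of 0.10; Pax6, a radial glia factor, had 10.7 and 10.3 FPKM in Rem2 KO with KCl, against 8.83 and 6.93 FPKM in Control with KCl (adjusted p = 0.239). Of 10 oligodendrocyte lineage markers 4 were higher and 1 lower. Of 8 microglia and macrophage markers 0 were higher and 5 lower (median -0.21), and the 14 in the table summed to 24.4 and 50.5 FPKM in Rem2 KO with KCl, against 30.3 and 67.2 FPKM in Control with KCl. Of 20 interneuron markers 7 (35%) were higher and 7 (35%) lower, against 35.6% and 23.7% over all genes tested. Of 9 endothelial and mural markers 3 were lower and 1 higher. Of 9 meningeal fibroblast markers 3 were higher and 2 lower. The part of these cell types in the 18 calls was not tested.

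The p53 targets were the list with the highest median. Of 21 tested 16 were higher in both pairs and 1 lower, and the median was 0.21 (0.18 after quantile normalization). At an unadjusted p under 0.05, 9 were higher (4.42% over all genes tested), and 0 passed (0.146% over all genes tested). Aen, a nuclease induced by p53, had 59.3 and 57.7 FPKM in Rem2 KO with KCl, against 42.6 and 47.8 FPKM in Control with KCl (log2 difference 0.37, adjusted p = 0.147). Phlda3, a p53-induced inhibitor of AKT, had 28.6 and 45.2 FPKM in Rem2 KO with KCl, against 23.8 and 35.5 FPKM in Control with KCl (log2 difference 0.30, adjusted p = 0.225). Of 11 interferon-stimulated genes 8 were higher and 0 lower, and Ifitm3 had 18.3 and 68.8 FPKM in Rem2 KO with KCl, against 11.7 and 53.3 FPKM in Control with KCl (adjusted p = 0.134). Ribosomal protein genes were higher in 19 of 26 and lower in 0 as deposited, but after quantile normalization 10 were higher and 4 lower. Cholesterol synthesis genes split by pair: their median log2 difference was 0.30 in pair 1 and -0.24 in pair 2. Of 22 integrated stress response genes 7 were lower and 2 higher. Of 13 guanylate cyclase and cGMP genes 6 were higher and 5 lower, and Gucy1b1 alone passed. Among 19 R-spondin and Wnt genes 10 were higher and 5 lower; Rspo2, a secreted enhancer of Wnt signalling, had 3.91 and 4.45 FPKM in Rem2 KO with KCl, against 6.93 and 8.28 FPKM in Control with KCl (log2 difference -0.73, adjusted p = 0.0596).

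**Figure D3:**
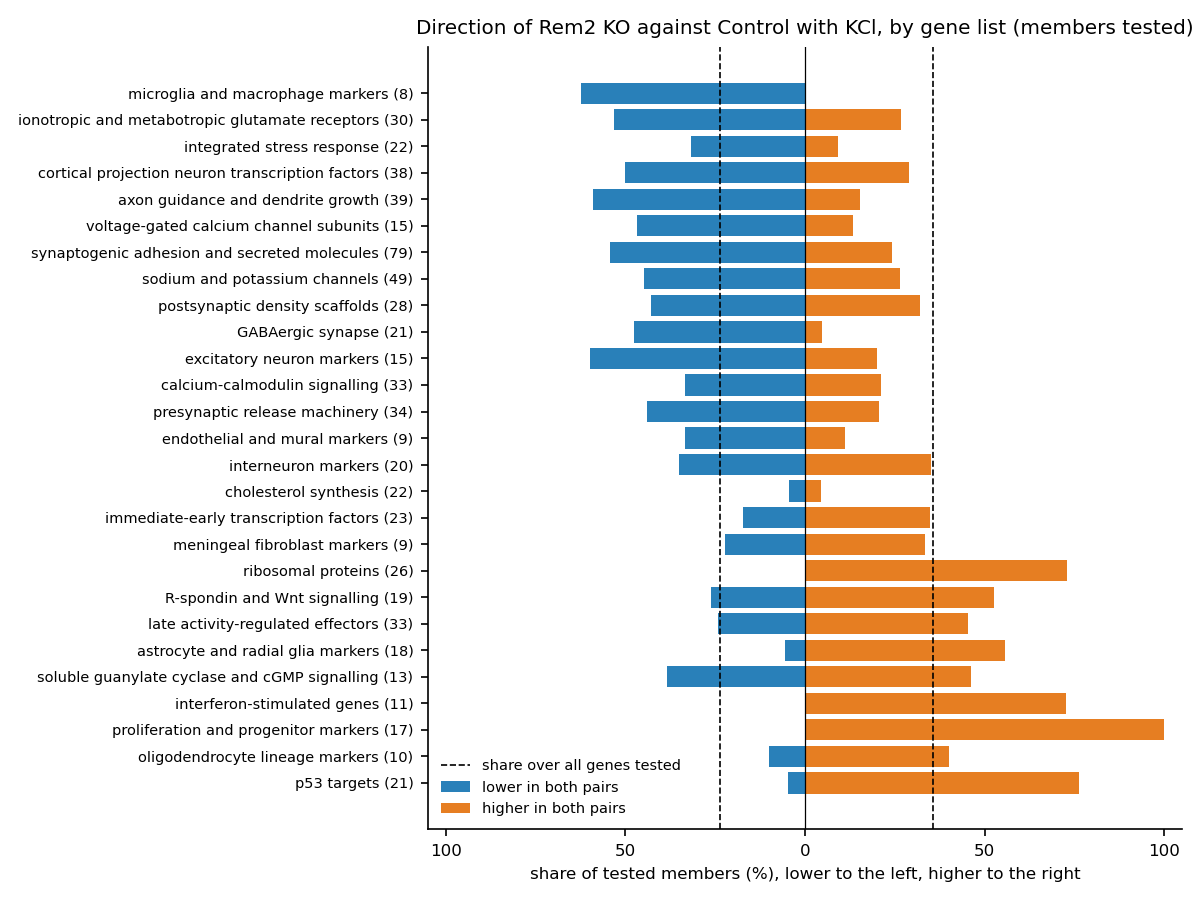
Share of the tested members of each list that was higher (orange, to the right) or lower (blue, to the left) in Rem2 KO than in Control with KCl in both pairs, in percent, with the number tested in brackets and lists ordered by median log2 difference. Dashed lines mark the shares over all 12287 genes, 35.6% higher and 23.7% lower. Microglia (62.5%), excitatory neuron (60%), axon guidance, glutamate receptor and synaptogenic lists, among others, extend past the lower line. Progenitor markers (100%), p53 targets (76.2%), ribosomal proteins (73.1%) and interferon-stimulated genes (72.7%), among others, extend past the higher one.

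The genotype difference in depolarised neurons was then set against that in silenced neurons, in the same model. Without KCl 15 genes (0.122%) passed between Rem2 KO and Control, 6 higher (0.0488%) and 9 lower (0.0732%). Igfbp7, Mir1249 and Gm7334 are among these 15, and each is listed at 0 in both silenced libraries of a genotype. No minimum was set in the silenced libraries, and a listed 0 can be a failed estimate. Gpc5 and Prss12 passed in both states. Gpc5 had 1.73 and 3.09 FPKM in silenced Rem2 KO, against 5.28 and 8.12 FPKM in silenced Control (log2 difference -1.18, adjusted p = 0.00338). Of the 18 genes that passed with KCl, 16 had the same sign without KCl, Mir670 was listed at 0 there throughout, and Grm2 had the other sign. The share of all genes tested with equal sign in both states was not computed. Grm2 had 4.35 and 4.40 FPKM in silenced Rem2 KO and 4.36 and 4.02 FPKM in silenced Control, a log2 difference of 0.05 (SE 0.11). Its genotype difference with KCl minus that without was -0.89 (SE 0.15), which did not pass (unadjusted p = 0.000339, adjusted p = 0.521). For Bhlhe22 the same quantity was -0.63 (SE 0.11, adjusted p = 0.521), with 84.9 and 67.3 FPKM in silenced Rem2 KO and 90.0 and 77.0 FPKM in silenced Control. For none of the 18 was the genotype difference shown to differ between the states.

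**Figure D4:**
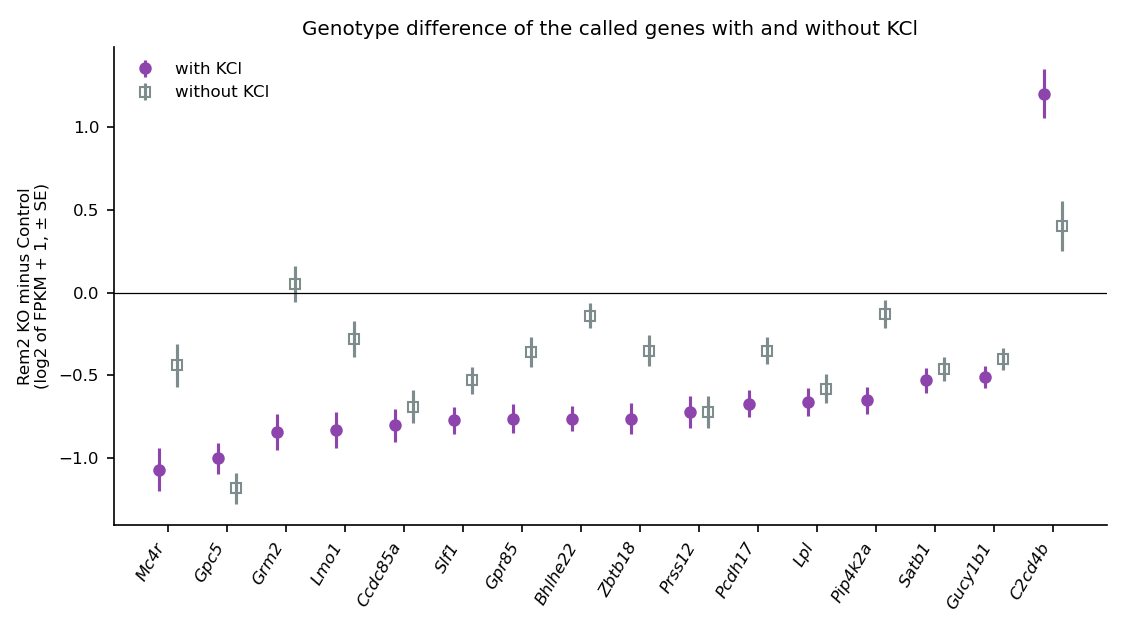
Rem2 KO minus Control (log2 of FPKM + 1, ± SE from the model over all 8 libraries) for 16 genes that passed with KCl, in depolarised (filled circles) and silenced cultures (open squares). Gpc5, Prss12, Lpl, Satb1 and Gucy1b1 have like values in both, while Grm2 is near 0 without KCl; none of the differences between states passed.

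Over all genes 3 (0.0244%) passed for the difference between states, at 446 with an unadjusted p under 0.05 (3.63%): Igfbp7, Mir1249 and Gm7334. All 3 are listed at 0 in both libraries of a silenced group and lie well above 0 in the depolarised ones, and a listed 0 can be a failed estimate. Without KCl 71 genes (0.578%) were higher and 108 (0.879%) lower by at least 0.32 in both pairs. Of the 157 genes lower by as much with KCl, 116 (73.9%) were also lower in both silenced pairs, against 28.8% of all genes tested, and their median log2 difference was -0.23 without KCl and -0.48 with KCl. Of the 101 higher genes, 59 (58.4%) were also higher in both silenced pairs, against 18.5% of all genes. The silenced libraries are other samples, but their same-numbered libraries share whatever the number stands for.

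Genomic length differed between the lower and the higher genes. The 157 genes lower by at least 0.32 (log2) in both pairs had a median genomic length of 92.4 kb and 46.5% of them exceeded 100 kb. The 101 higher genes had a median of 13.9 kb with 10.9% over 100 kb, and all genes tested had 24.6 kb and 15.1%. Both sets also had lower levels, with a median of the mean FPKM of 7.8 for lower and 6.52 for higher genes. Over all genes tested it was 12.4, and the part of level was not tested. In the longest of 10 equal bins (median 239 kb) 5.13% were lower and 0.407% higher, and after quantile normalization 5.37% and 0.325%. In the shortest bin (median 2.72 kb) 1.22% were lower and 2.03% higher. Without KCl the longest bin held 2.69% lower and 0.488% higher genes. The 16 genes that fell had a median of 51.2 kb, and 3 of them exceed 100 kb (Gpc5, Ccdc85a and Pip4k2a). Many axon guidance and synaptic genes are long, and the part of length in the counts of those lists was not tested. These shares are descriptions, since genes are not replicates.

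**Figure D5:**
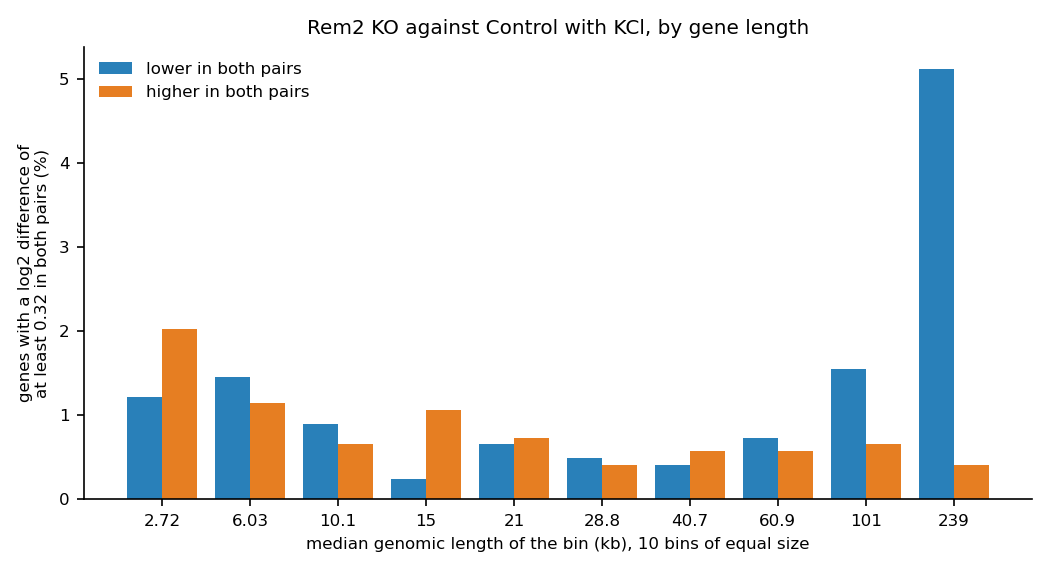
Percent of genes lower (blue) or higher (orange) in Rem2 KO than in Control with KCl by a log2 difference of at least 0.32 in both pairs, in 10 bins of equal size by genomic length, labelled with the bin's median in kb. The bin with a median of 239 kb stands out at 5.13% lower, while the shortest bin holds the largest share of higher genes, 2.03%.

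Some genes could not be tested because they are listed at 0. By the rule of values above 0 in all 4 libraries, 249 genes that reached 1 FPKM in at least 2 were left out. Of these 9 are at 0 in both Rem2 KO libraries with KCl and at 1 FPKM or more in both Control libraries, and 4 the reverse. Most are microRNA or small nucleolar entries, named or counted here after their values were seen. Surf1, an assembly factor of cytochrome c oxidase, is listed at 0 in both Rem2 KO libraries with KCl, against 33.9 and 21.3 FPKM in Control with KCl. In the silenced libraries it had 20.5 and 35.2 FPKM in Rem2 KO and 30.2 and 21.5 FPKM in Control, and no other library is at 0. Its head-to-head neighbour Surf2 had 39.8 and 40.2 FPKM in Rem2 KO with KCl, against 20.9 and 27.7 FPKM in Control with KCl (log2 difference 0.71, adjusted p = 0.0694). Agbl5, a deglutamylase of tubulin, is listed at 0 in both Control libraries with KCl and at 3.14 and 3.10 FPKM in Rem2 KO with KCl. A listed 0 can be a failed estimate as well as an absent transcript, which the values cannot tell apart.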

How the data were processed

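RNA was sequenced from 8 libraries of cultured mouse cortical neurons, made from 500 ng of total RNA each with an Illumina TruSeq kit per the labels' protocols. TopHat, Cufflinks and mm10 are named, without versions, in the submitters' processing notes. The FPKM values were computed by the authors and deposited per RefSeq transcript, per the file headers, in 34915 entries. Genes were found for 34015 of 34353 distinct accessions, and the unmatched 338 carry 0.313% to 0.502% of a library's total. Transcript values were summed per gene, and 302 genes were dropped for an accession that repeats or a value that is missing.

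Genes above 0 in all 4 KCl libraries and at 1 FPKM or more in 2 were tested on log2(FPKM + 1) with limma 3.58.1 in R 4.3.3, with means for the 4 groups, the replicate number as a block (3 residual degrees of freedom) and a variance trend. Benjamini-Hochberg adjustment ran over 12287 genes, with a threshold of 0.05. The pairing comes from the numbers in the library titles. How far libraries of equal number departed from their own group correlated at 0.822 to 0.916 over 6 pairs of groups. The labels do not say what a number marks, so the fit without the block is given too. The script was tested on simulated data.

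Named genes were the RGK genes, up to 14 rises and 14 falls past the threshold by size with equal direction in both pairs and 2 FPKM or more as the mean of either group (predicted, microRNA and small nucleolar genes skipped), where fewer than 10 passed up to 10 of the smallest p, and from each of 29 lists up to 4 members past the threshold or else 2. A gene that the rule names is not reported here. The mitochondrially encoded list had 0 members in the table. Groups, lists and members were chosen with earlier results of these data known. Alternatives were other pseudocounts, minimums, scalings, fits and leaving out each library. Depth was read roughly from the steps between the lowest FPKM values.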

Additional observations from a re-analysis of the deposited data

Results flagged for a closer look

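3 genes passed the test of a genotype difference that itself differs between depolarised and silenced cultures (limma, adjusted over 12287 genes). Each call rests on values listed at 0 in both libraries of a silenced group, where no minimum was set, and a listed 0 can be a failed estimate as well as an absent transcript. The difference with KCl minus that without was 4.21 (SE 0.14, adjusted p = 7.22e-06) for Igfbp7, a secreted growth factor binding protein. Igfbp7 had 17 and 17.8 FPKM in Rem2 KO with KCl, against 21.3 and 17.8 FPKM in Control with KCl, and is listed at 0 in both silenced Rem2 KO libraries, against 20.0 and 19.2 FPKM in silenced Control. For Mir1249 it was -5.91 (SE 0.30, adjusted p = 0.000107), with 24.2 and 11.5 FPKM in Rem2 KO with KCl, against 22.5 and 19.1 FPKM in Control with KCl. Without KCl Mir1249 had 49.8 and 46.6 FPKM in Rem2 KO and is listed at 0 in both Control libraries. For Gm7334 it was 1.63 (SE 0.18, adjusted p = 0.0442), with 3.81 and 4.76 FPKM in Rem2 KO with KCl, against 3.40 and 3.22 FPKM in Control with KCl, and without KCl a listing at 0 in both Rem2 KO libraries, against 1.30 and 1.79 FPKM in Control. None of the 3 passed between the genotypes with KCl.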

How the results depend on the processing

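The 18 calls between Rem2 KO and Control with KCl became 0 without the replicate block, 0 with no minimum (lowest adjusted p = 0.0755), 0 with quantile normalization (0.0689), 0 with each transcript tested, 1 without the variance trend and 354 in a fit of only the 4 KCl libraries. Added after the data were seen, genes above 0 in all 8 libraries gave 32, and quantile normalization of the 4 KCl libraries alone gave 0. Leaving out 1 library gave 0 to 22. All 18 kept their direction in every fit per gene that tested them, but these fits reuse the libraries from which the 18 were picked. The difference between states, 3 genes, became 11 with each transcript tested and 2 to 17 leaving out 1 library, 5 without replicate 2 of silenced Rem2 KO. Without the replicate block it gave 2. Without KCl the 15 calls became 9 with a pseudocount of 0.1, 5 with no minimum, 5 with quantile normalization, 2 without the replicate block, and 4 to 34 leaving out 1 library. The causes were not tested. The 258 genes past 0.32 (log2) in both pairs became 40 at 1.5-fold. Without replicate 1 of Rem2 KO with KCl, Gem turned to -0.043 and Dhcr7 to -0.031, in ranges of -0.043 to 0.302 and -0.031 to 0.357 leaving out 1 library. A minimum of 5 FPKM left 68 of the 75 named genes. Same-numbered libraries share a number and roughly a depth. The pairing was taken from the numbers in the titles, and no label says what a number marks.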
